A study of Rattus norvegicus with 4 samples.

Results

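Bag3 and the cytosolic heat shock chaperones that work with it were followed in rat retinal neurospheres, floating clusters grown from dissociated retina. The 9 genes named in advance were Bag3, Hspb1, Hspb8, Cryab, Hspa1a, Hspa8, Dnajb1, Hsph1 and Hsp90aa1, and every probe set annotated with exactly 1 of these symbols was taken. That gave 10 of the 31099 probe sets on the array, for 7 of the 9 genes. Hspa8 and Hsp90aa1 had no probe set with a single symbol, and 4 probe sets that name a member together with another gene were left out. The members were chosen with the difference between the 2 culture conditions already known, so their differences are given here as a description without a test.

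The neurospheres came from Sprague Dawley rat embryos at embryonic day 18, with the retinal cells of several embryos pooled for each preparation. The 2 EGF arrays hold RNA from neurospheres grown with epidermal growth factor (EGF) alone. The 2 conditioned-medium arrays hold RNA from neurospheres that received EGF together with endothelial cell conditioned medium, abbreviated ECCM. All 4 cultures therefore received EGF, and all were of 1 strain. The source of the endothelial cells, the dose of the medium and the length of culture are not given in the sources used here. RNA was read on an Affymetrix rat 3' expression array, 1 array per culture, with the arrays of each condition labelled biological replicates 1 and 2. A neurosphere is a mixture of cells, so a change in RNA per cell and a change in the share of a cell type cannot be told apart in any value below.

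Values below are log2 levels after quantile normalization unless they are called deposited, because the deposited arrays differed in overall level, with medians of 6.03 and 6.25 log2 for EGF and 6.84 and 6.56 log2 for conditioned medium. Over the 21729 probe sets tested, the median difference between conditions was -0.01 log2 after quantile normalization, -0.14 log2 with median-centred arrays and 0.43 log2 as deposited. The retinal factors Pax6, Rax, Sox2, Six6 and Lhx2 lay between 10.81 and 12.85 log2 in all 4 arrays, which shows that retinal RNA was present and not that these genes were steady. Another retinal factor, Six3, was dimmer, at 6.67 and 6.86 log2 with EGF and 6.76 and 6.83 log2 with conditioned medium. Of 12 endothelial markers, Pecam1, Tek, Tie1, Emcn and Erg were too dim to test, with array values of 3.09 to 4.53 log2 against a limit of 4.765 log2 for dim probe sets. Cdh5 had no probe set with a single symbol. The other 6 were bright enough to test, among them Kdr at 11.95 and 12.03 log2 with EGF and 12.41 and 12.39 log2 with conditioned medium. The dim markers alone do not show that endothelial RNA was absent. Control probe sets sit at both ends of the actin transcript, and the excess of the 3' over the 5' signal, which grows as RNA degrades, was 1.89 and 2.03 log2 with EGF and 1.59 and 1.43 log2 with conditioned medium, and its part in the results was not tested.

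Heat shock chaperones bind proteins that are unfolded or damaged. The ATP-driven Hsp70 proteins, here Hspa1a and the constitutive Hspa8, fold clients with the help of J proteins such as Dnajb1, which deliver clients and trigger ATP hydrolysis, and of nucleotide exchange factors such as Hsph1 and the BAG proteins, which release them. The small heat shock proteins Hspb1, Hspb8 and Cryab hold unfolded clients without using ATP. Bag3 is a BAG family co-chaperone that links Hsp70 to Hspb8 and other small heat shock proteins and directs clients, including the actin crosslinker filamin, to autophagy, a route known best from muscle. Many of these genes are induced by the transcription factor Hsf1, which binds heat shock elements made of inverted repeats of a short GAA unit. Cryab is also known as an abundant protein of the lens, of muscle and of glia.

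Promoter sequence was not used in choosing the members, and it is shown to set the heat shock units of 5 of the measured genes side by side. Of the 9 genes, 7 matched the RefSeq promoter table (assembly GRCr8), which holds 250 bases before and 50 after each annotated start, and Cryab and Hsp90aa1 are not in it. In the stretches below, all from before the start and read 5′ to 3′ on the gene's strand, capitals mark GAANNTTC, the head-to-head pair of heat shock units, or, in Hsph1, a run of 3 units in which TTC, GAA and TTC follow each other with 2 bases between. The lines give Bag3 (chr1:192533304-192533359, plus strand), Hspb1 (chr12:26432379-26432454, minus strand), Hspb8 (chr12:45837261-45837307, plus strand), Dnajb1 (chr19:41431142-41431176, minus strand) and Hsph1 (chr12:10427308-10427367, plus strand).
Bag3: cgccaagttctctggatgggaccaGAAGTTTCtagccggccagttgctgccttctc
Hspb1: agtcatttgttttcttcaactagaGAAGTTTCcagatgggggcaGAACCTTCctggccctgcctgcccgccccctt
Hspb8: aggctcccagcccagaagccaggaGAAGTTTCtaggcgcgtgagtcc
Dnajb1: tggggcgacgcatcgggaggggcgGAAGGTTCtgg
Hsph1: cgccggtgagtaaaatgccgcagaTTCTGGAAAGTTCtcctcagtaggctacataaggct

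Bag3, Hspb1 and Hspb8 carried the same 8 letters, GAAGTTTC, whose first base lies at position -132, -129 and -23 from the start. This shared word was noticed after the sequences were read, and it stands on either strand in 1.39% of the 33469 promoters of the table. GAANNTTC, which reads the same on both strands, was found in 6 of the 7 members and in 8.59% of all promoters, and the other arrangement, TTCNNGAA, in 2 of the 7 members and 8.77% of all promoters. The run of 3 alternating units, on either strand, contains both pairs and so overlaps their counts. It was found in Hsph1 and Hspa8 and in 0.798% of all promoters. CCAAT, on either strand, was in 4 of 7 members against 37.5% of all promoters, and the CArG box, the site of serum response factor, was in 0 of 7 against 1.64%. The Hspa1a window held none of these letters, which says nothing about sequence outside it. A match is a match of letters only.

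The co-chaperone Bag3 was far higher with conditioned medium, and it differed more than any other member. Under EGF alone its probe set read 4.85 and 4.95 log2, against 7.71 and 7.83 log2 under conditioned medium. Both conditioned-medium arrays lay far above both EGF arrays, and the means of 4.90 ± 0.07 and 7.77 ± 0.08 log2 (SD, n = 2 per group) differed by 2.87 log2, or 7.30-fold. The 4 differences between an array of one condition and an array of the other ran from 2.76 to 2.98 log2. Of the 21729 tested probe sets, 5 had a larger positive difference. The difference was 2.92 log2 with median-centred arrays and 3.49 log2 as deposited, so its direction held under all 3 scalings and its size was 11.2-fold as deposited. The EGF level lies just above the limit for dim probe sets. In this range the deposited values fall on few steps: 199 probe sets share the deposited value of Bag3 in EGF replicate 2, 1 of the Hspb8 probe sets among them. The size of the fold is therefore less certain than the direction.

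**Figure D1:**
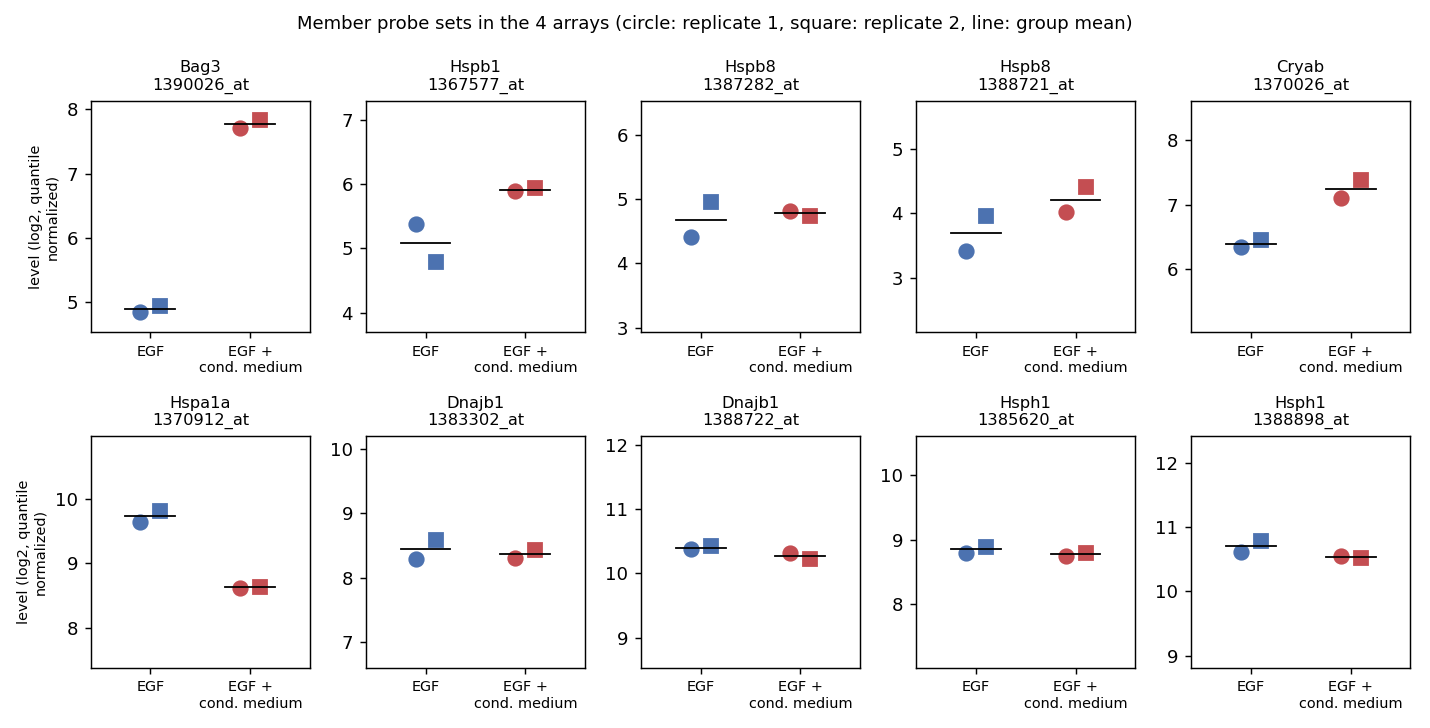
Level of each of the 10 member probe sets in the 4 arrays (y axis, quantile normalized log2; all panels span an equal range) by condition (x axis), with replicate 1 as a circle, replicate 2 as a square and the group mean as a line. The group means of Bag3 are 4.90 and 7.77 log2, Hspb1 and Cryab are higher by 0.83 and 0.84 log2, and Hspa1a is lower by 1.10 log2.

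The small heat shock proteins were higher with conditioned medium by less than Bag3, and the Hspb8 probe sets were too dim to settle. Cryab read 6.34 and 6.46 log2 with EGF and 7.11 and 7.38 log2 with conditioned medium, without overlap. The difference was 0.84 log2, or 1.79-fold, with pairs between 0.64 and 1.04 log2, and it was 0.80 log2 with median-centred arrays and 1.37 log2 as deposited. Hspb1, the ubiquitous small heat shock protein also called Hsp27, read 5.38 and 4.79 log2 with EGF and 5.89 and 5.94 log2 with conditioned medium. Its groups did not overlap either, but the SD was 0.42 log2 in the EGF arrays against 0.04 log2 in the conditioned-medium arrays. The Hspb1 difference of 0.83 log2, or 1.78-fold, therefore ran from 0.51 to 1.16 log2 over the pairs, and it was 1.53 log2 as deposited.

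Hspb8, the small heat shock protein that binds Bag3 directly, had 2 probe sets, both under the limit for dim probe sets on average. The brighter one read 4.41 and 4.95 log2 with EGF and 4.81 and 4.74 log2 with conditioned medium. Its groups overlapped, and the difference of 0.10 log2 is smaller than the EGF spread of 0.38 log2 (SD). The dimmer one read 3.42 and 3.96 log2 with EGF and 4.02 and 4.40 log2 with conditioned medium, a difference of 0.52 log2 whose pairs ran from 0.05 to 0.98 log2. As deposited, the differences were 0.90 and 1.14 log2. These arrays do not show whether Hspb8 moved with Bag3.

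The Hsp70 gene Hspa1a, the classic stress-inducible member of its family, was lower with conditioned medium, opposite to Bag3. It read 9.65 and 9.81 log2 with EGF and 8.62 and 8.63 log2 with conditioned medium. The groups lay apart by far more than the replicates, with SDs of 0.11 and 0.01 log2 (n = 2 per group), and the means differed by -1.10 log2, a level 2.15-fold lower. The pairs ran from -1.18 to -1.02 log2. The difference was -1.32 log2 with median-centred arrays and -0.76 log2 as deposited, where the whole array shift goes the other way. Hspa1a has a near-identical copy, Hspa1b, and the array annotation names both for another probe set, so RNA of the 2 copies may not be separated here.

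The J protein Dnajb1 and the Hsp70 nucleotide exchange factor Hsph1 differed little after quantile normalization. The brighter Dnajb1 probe set read 10.38 and 10.43 log2 with EGF and 10.31 and 10.22 log2 with conditioned medium, a difference of -0.14 log2. The dimmer one overlapped between conditions, at 8.29 and 8.59 log2 against 8.30 and 8.43 log2, with a difference of -0.08 log2. Both probe sets of this gene thus lay within 0.29 log2 of no difference in every pair of arrays.

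Hsph1 read 10.61 and 10.79 log2 with EGF and 10.55 and 10.52 log2 with conditioned medium in its brighter probe set, a difference of -0.17 log2. Its dimmer probe set read 8.80 and 8.89 log2 against 8.75 and 8.80 log2, a difference of -0.08 log2. These 3 differences without overlap (1 for Dnajb1, 2 for Hsph1) have a sign that depends on the scaling. With median-centred arrays the brighter probe sets of Dnajb1 and Hsph1 differed by -0.39 and -0.42 log2, and both were called lower. The dimmer ones differed by -0.27 and -0.29 log2 and were not called. The median over all tested probe sets was then -0.14 log2. As deposited, the Dnajb1 probe sets were higher by 0.18 and 0.29 log2 and the Hsph1 probe sets by 0.15 and 0.28 log2, all less than the median shift of 0.43 log2.

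**Figure D2:**
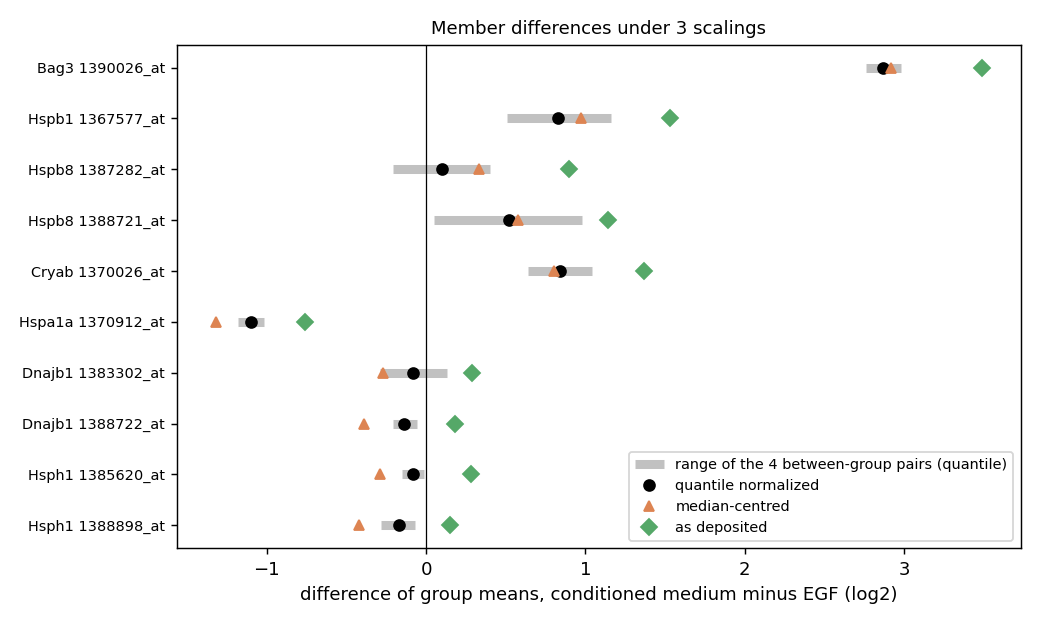
Difference of group means, conditioned medium minus EGF (x axis, log2), for each member probe set under quantile normalization (circle), median centring (triangle) and as deposited (diamond); the grey bar spans the 4 differences between arrays of opposite conditions after quantile normalization. Bag3, Hspb1 and Cryab lie right of 0 and Hspa1a lies left of 0 under all 3 scalings, whereas the Dnajb1 and Hsph1 probe sets change side.

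Across the 10 member probe sets, 5 were higher and 5 lower with conditioned medium, with a median difference of 0.01 log2 against -0.01 log2 over all tested probe sets. The groups did not overlap for 8 of them, 4 higher and 4 lower, beside 27.0% higher and 29.4% lower among the 31042 probe sets that are not controls. Past 1 log2 were Bag3 upward and Hspa1a downward, against 1.62% of all probe sets upward and 0.986% downward. The filter on dim probe sets was passed by 8 of the 10. In the limma fit of all 21729 tested probe sets, called at an adjusted p under 0.05 in the same direction under all 3 scalings, 3 members were called higher (Bag3, Hspb1 and Cryab) and 1 lower (Hspa1a), beside 7.27% and 1.51% of all tested probe sets. With quantile normalized values alone the same 4 members were called, beside 12.6% of probe sets higher and 12.9% lower. Since the members were chosen on this contrast, nothing is read from these counts. Hspb1 was not called under all 3 scalings without EGF replicate 2 or without either conditioned-medium array, and Cryab was not without EGF replicate 1, EGF replicate 2 or conditioned-medium replicate 2. Hspa1a was not called on deposited values with the replicate as a block.

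The genes whose profile over the 4 arrays was nearest to that of Bag3, by Euclidean distance of mean-centred log2 levels among tested genes, were Col1a2 (distance 0.0922 log2), Cnn2 (0.193), Tagln (0.282), Cpeb1 (0.330) and Spn (0.378). Col1a2 is a chain of type I collagen, Cnn2 a calponin and Tagln transgelin, both of which bind actin, Cpeb1 regulates translation, and Spn is a leukocyte sialoglycoprotein. Col1a2 read 6.88 and 6.98 log2 with EGF and 9.85 and 9.92 log2 with conditioned medium. With EGF alone, Tagln (4.67 and 4.62 log2) and Spn (3.94 and 3.71 log2) lay below the 4.765 log2 limit for dim signal and Cpeb1 (4.41 and 4.95 log2) on both sides of it, and these 3 were among the tested genes through their conditioned-medium arrays and their distances rest partly on dim values. With 4 arrays in 2 conditions, this likeness mostly says that the size of the difference was alike. The nearest gene to Hspa1a was Gngt1, a rod transducin subunit (distance 0.0395 log2), which read 11.02 and 11.21 log2 with EGF and 9.99 log2 in both conditioned-medium arrays. The nearest to Hspb1 was Gprc5b (0.0364), to Cryab Islr (0.0561), to Dnajb1 Cyb5r4 (0.0152), to Hsph1 Cpne5 (0.00791) and to the brighter Hspb8 probe set Letmd1 (0.0501).

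Whether the rest of the chaperone network differed with Bag3 was asked with 108 other genes in 10 lists, of which 103 were on the array and 98 bright enough to test, each by its brightest probe set. Of the 98, 6 rose and 0 fell under all 3 scalings (limma, adjusted p under 0.05), which is 6.12% and 0% against 8.52% and 1.78% of the 11498 genes tested. At an unadjusted p under 0.05 under all 3 scalings the counts were again 6 and 0. A fall under all 3 scalings must also pass as deposited. There the list median was 0.35 log2, with 42 list genes called higher and 0 lower. The rule thus favours rises, and 0 falls by either p says little, here and in the single lists below. The median difference was 0.02 log2 against 0.00 log2 over all genes tested. On quantile normalized values alone 15 were higher and 10 lower, or 15.3% and 10.2% against 15.2% and 13.3% of all genes. The 6 genes were Hspb3, Hspa2, Wipi1, Flna, Flnc and Wwtr1, and only Wipi1 stayed called whichever of the 4 arrays was left out. With all 4 arrays but without the intensity trend in the fit, Wipi1 was not called under all 3 scalings, and only Hspb3 and Flnc were.

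The other BAG genes were not called. In the limma fit, 0 of these 5 were past the threshold under all 3 scalings or after quantile normalization alone, and 0 had an unadjusted p under 0.05 under all 3 scalings. Bag1, an activator of Hsp70 nucleotide exchange, read 9.85 and 10.02 log2 with EGF and 10.10 and 9.95 log2 with conditioned medium (difference 0.09 ± 0.09 SE, limma). Bag2, which inhibits the ubiquitin ligase Stub1, differed by 0.00 ± 0.14 log2 (SE), and Bag4, Bag5 and Bag6 by -0.17 ± 0.15, -0.06 ± 0.09 and -0.11 ± 0.10 log2 (SE).

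Among the small heat shock proteins outside the members, 1 of 4 tested genes rose and 0 fell, with a list median of 0.36 log2. The muscle protein Hspb3 rose by 0.90 ± 0.22 log2 (SE, limma adjusted p = 0.0151), from 4.97 and 5.04 log2 to 5.87 and 5.94 log2, starting just above the limit for dim probe sets. Hspb6 (0.26 ± 0.12 SE), Hspb7 (0.09 ± 0.15 SE, with its second probe set at 0.70 log2) and the lens protein Cryaa (0.46 ± 0.32 SE) did not pass. Hspb2, which overlaps Cryab in the RefSeq annotation, and Hspb9 were too dim to test.

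In the Hsp70 family, 1 of 8 tested genes rose and 0 fell, with a list median of -0.04 log2. Hspa2, an Hsp70 known for its role in the testis, rose by 0.90 ± 0.24 log2 (SE, limma adjusted p = 0.0201), but its EGF arrays stood apart at 7.94 and 7.03 log2 against 8.52 and 8.26 log2, and its other probe set differed by 0.41 log2. Hspa12a (-0.52 ± 0.10 SE) and Hspa14 (-0.42 ± 0.09 SE) were lower after quantile normalization but not under all 3 scalings. The Hsp70-like exchange factor Hspa4, a paralogue of Hsph1, differed by -0.08 ± 0.07 log2 (SE), and Hspa4l by -0.21 ± 0.08 log2 (SE). Of the 14 J proteins 0 were called under all 3 scalings, by adjusted or by unadjusted p, with a median of -0.07 log2. Dnajc9, a histone chaperone of replicating cells, was higher by 0.36 log2 and Dnajb6, which holds back aggregation, lower by 0.43 log2 after quantile normalization but not under all 3 scalings, and so was Dnajc5, the synaptic vesicle J protein, by 0.30 log2.

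Hsp90 and its partners were not called either. Of 15 tested genes 0 were called under all 3 scalings, by adjusted or unadjusted p, with a median of -0.02 log2. Hsp90ab1, the constitutive cytosolic Hsp90, was higher by 0.31 ± 0.06 log2 and St13, an Hsp70-binding co-chaperone, by 0.40 ± 0.07 log2 (SE) after quantile normalization, not under all 3 scalings, and the other St13 probe set differed by -0.11 log2. The cyclophilin Ppid differed by -0.14 ± 0.07 log2 (SE). The chaperonin TRiC and its partner prefoldin had 0 of 13 genes called under all 3 scalings and a median of 0.00 log2. Pfdn4 (0.38 log2) was called higher and Cct6a (-0.21 log2) lower after quantile normalization, and Cct3 (-0.15 log2) was not called there. Among 8 mitochondrial chaperones, 0 were called under all 3 scalings, with a median of 0.07 log2. Clpb (-0.35 log2) and Grpel2 (-0.54 log2) were called lower after quantile normalization, and Hspe1 (0.16 log2) was not called there. Among 13 chaperones of the endoplasmic reticulum 0 were called under all 3 scalings, with a median of 0.09 log2, and the folding enzymes Pdia4 (0.35 log2) and Pdia6 (0.39 log2) and the J protein partner Sdf2l1 (0.36 log2) were higher after quantile normalization but not under all 3 scalings. In these 3 lists, too, 0 genes had an unadjusted p under 0.05 under all 3 scalings.

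Of 3 tested heat shock factors and regulators, 0 were called in limma, by adjusted or unadjusted p under all 3 scalings. Hsf1 read 8.75 and 8.76 log2 with EGF and 8.57 and 8.51 log2 with conditioned medium, a difference of -0.21 ± 0.10 log2 (SE, limma adjusted p = 0.134). Hsf2 differed by -0.06 ± 0.08 log2 and the inhibitor Hsbp1 by -0.08 ± 0.07 log2 (SE), and Hsf4 was too dim to test. RNA levels do not report the activity of these factors.

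Genes that act with Bag3 in autophagy and at the cytoskeleton rose in 4 of 15 tested and fell in 0, with a list median of 0.11 log2, beside 8.52% of all genes tested that were higher and 1.78% that were lower. Of the 4 only Wipi1 was called whichever array was left out. By the quantile scaling alone, 5 passed upwards and 2 downwards, beside 15.2% and 13.3% of all genes tested. This list was chosen with earlier results of these data known, so nothing is read from its counts. Flnc, the muscle filamin and a known client of Bag3, rose by 1.44 ± 0.26 log2 (SE, limma adjusted p = 0.00296), from 5.71 and 4.99 log2 to 6.57 and 7.01 log2, and its other probe set differed by 0.35 log2. Flna, the widely expressed filamin, rose by 0.54 ± 0.08 log2 (SE, limma adjusted p = 8.06e-04), from 10.07 and 10.19 log2 to 10.67 log2 in both arrays. Wipi1, which acts at the forming autophagosome, rose by 0.76 ± 0.08 log2 (SE, limma adjusted p = 1.23e-04), with 0.39 log2 for its other probe set. Without the intensity trend in the fit, Wipi1 was not called under all 3 scalings. Wwtr1, the YAP paralogue TAZ, also rose (0.64 ± 0.17 SE) and is named because it completes the 4. The autophagy receptor Sqstm1 (0.15 ± 0.07 SE, 4 probe sets from -0.20 to 0.15 log2), the ubiquitin ligase Stub1 of the Hsp90 list (0.14 ± 0.08 SE), the kinase Lats1 (-0.35 ± 0.09 SE), the deacetylase Hdac6 (-0.44 ± 0.10 SE, like Lats1 lower after quantile normalization) and Amotl1 (0.38 ± 0.12 SE), all 5 named after their values were seen, did not pass under all 3 scalings.

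**Figure D3:**
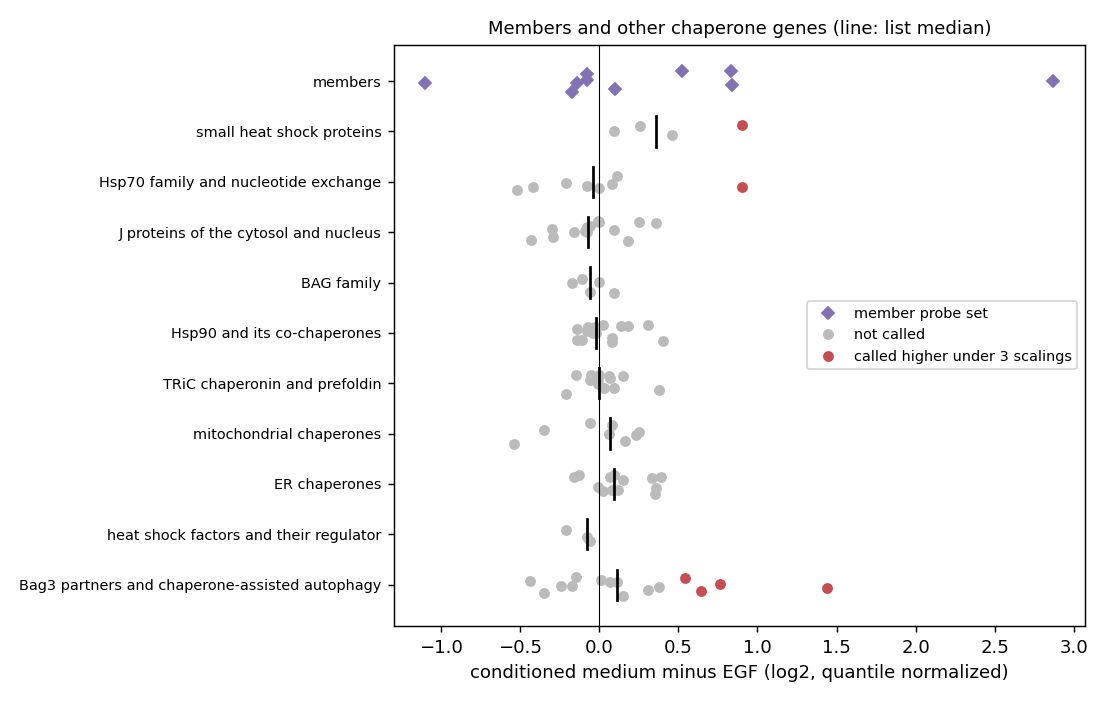
Difference between conditions (x axis, quantile normalized log2) of the 10 member probe sets (diamonds) and of each tested gene in 10 chaperone lists (circles, red where higher under all 3 scalings, black line at the list median). The red circles are Hspb3, Hspa2, Flnc, Flna, Wipi1 and Wwtr1, and Bag3 lies apart at 2.87 log2.

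Markers of retinal progenitors and of other cells moved in the same arrays, and their part in the values of Bag3, Hspb1, Cryab and Hspa1a was not tested. Under all 3 scalings 8.52% of all genes tested were higher and 1.78% lower. Of 10 tested retinal progenitor markers 4 rose (Ccnd1, Nes, Six6 and Hes1) and 0 fell under all 3 scalings. Their summed intensities over the 10 genes (levels turned back from log2) were 22141 and 24255 with EGF and 29960 and 29282 with conditioned medium. Much of that rise came from Ccnd1 (1.35 ± 0.08 SE). Lhx2 was higher (0.54 ± 0.13 SE) and Rax lower (-0.24 ± 0.07 SE) after quantile normalization but not under all 3 scalings. Pax6, Six3, Sox2 and Hes5 were not called after quantile normalization. Of 8 tested smooth muscle and muscle markers 5 rose and 0 fell under all 3 scalings, and the summed intensity of the 12 markers on the array was 1234 and 1155 with EGF and 2495 and 2525 with conditioned medium. The called genes include Cald1 (1.31 ± 0.09 SE, with 3 probe sets from -0.02 to 1.31 log2), which makes up the largest part of these sums. Tagln (2.69 ± 0.20 SE) and Tnnt2 (2.51 ± 0.21 SE, with its other probe set at 0.35 log2) were called too. Their EGF levels, 4.67 and 4.62 log2 for Tagln and 4.54 and 4.40 log2 for Tnnt2, are below the limit for dim signal. Both therefore entered the test through the conditioned-medium arrays, and the sizes are uncertain. Des (0.51 ± 0.22 SE) and Myh11 (0.09 ± 0.20 SE) did not pass, and Cnn1 and Lmod1 were too dim. Of 7 tested mesenchymal markers 6 rose, with a summed intensity over 12 genes of 827 and 665 against 2107 and 2066. That sum rests largely on Col1a2 (2.95 ± 0.10 SE) and Fn1 (1.08 ± 0.18 SE). Pdgfrb was among the 6, but its 3 probe sets ran from -0.16 to 0.87 log2. Col3a1 (0.24 ± 0.33 SE) did not pass, and Dcn and Lum were too dim. Of 9 tested Müller glia and astrocyte markers 4 rose, with sums over 10 genes of 16605 and 14466 against 28736 and 29755. Clu (1.86 ± 0.07 SE, 0.02 log2 for its other probe set) and the intermediate filament Vim (0.99 ± 0.12 SE), both also made by other cells, rose and are among the brightest of the list. The sums therefore rest largely on Vim and Clu. Slc1a3 (0.65 ± 0.08 SE) and Apoe (0.68 ± 0.08 SE) rose too, but their probe sets went both ways. Those of Slc1a3 ran from -0.65 to 0.71 log2, and the other Apoe probe set differed by -0.42 log2. Rlbp1, the retinal binding protein of Müller glia, was lower after quantile normalization (-0.70 ± 0.08 SE, limma adjusted p = 2.26e-04) but not under all 3 scalings, and Gfap (-0.12 ± 0.22 SE) and Aqp4 (-0.57 ± 0.21 SE) did not pass.

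Of 8 tested lens markers 2 rose and 0 fell, with sums over 16 genes of 526 and 499 against 816 and 819. The lens β-crystallin Crybb3 rose by 1.53 ± 0.12 log2 (SE) while the γ-crystallin Cryga differed by -1.03 ± 0.25 log2 (SE) and Mip and Lim2, membrane proteins that define lens fibre cells, were too dim. Of 10 tested microglia markers 6 rose, with sums over 13 genes of 713 and 751 against 1269 and 1321, and Itgam and P2ry12 were too dim. Among the 6, Ptprc (4.41 and 4.79 log2) and C1qc (4.85 and 4.40 log2) had EGF means below the limit for dim signal. Both therefore entered the test through the conditioned-medium arrays. Aif1, also among the 6, was higher by 1.16 log2, but its other probe set differed by -0.23 log2. Of 6 tested endothelial markers 2 rose, Flt1 and Esam, with sums over 11 genes of 4342 and 4503 against 5905 and 5818. Flt1 read 3.86 and 3.78 log2 with EGF, below the same limit, and entered the test through the conditioned-medium arrays (6.07 and 5.75 log2). Kdr, bright in all 4 arrays, makes up most of the endothelial sums, which are therefore not a measure of the whole list. It read 11.95 and 12.03 log2 with EGF and 12.41 and 12.39 log2 with conditioned medium. Kdr was higher by 0.41 ± 0.06 log2 (SE) after quantile normalization but not under all 3 scalings, and its other probe set differed by -0.14 log2. Of 8 tested photoreceptor markers 6 fell and 0 rose, with sums of 9106 and 9005 against 3024 and 2984. Gnat1, near the limit for dim signal, differed by 0.00 ± 0.30 log2 (SE). Hspa1a was lower in the same arrays, as was every gene lower with conditioned medium, and a link to photoreceptor RNA was not tested.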

How the data were processed

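The authors deposited log2 values from RMA (robust multi-array average, which subtracts background and summarises each probe set's probes) run in GenePattern, per the labels; no version or option is given in the sources used here. The deposited log2 values fall on 2738 to 3291 distinct values per array, and on 33 to 36 below 4 log2, so dim probe sets share values. All 31099 probe sets were quantile normalized with limma 3.58.1 in R 4.3.3. After leaving out 57 controls and the dimmest 30% by mean, 21729 were tested (lmFit and eBayes with trend on mean level; two-sided; adjusted p under 0.05 by Benjamini-Hochberg). A call needed the same direction with quantile normalized, median-centred and deposited values. Because the deposited values shift upward with conditioned medium, this rule favours rises, which made up 82.8% of its calls. On deposited values limma's prior degrees of freedom were infinite, so each probe set's own spread had no weight there. Of the probe sets, 20832 had 1 symbol, 436 several and 9831 none, per the platform annotation; 20764 of the 20832 matched RefSeq GRCr8 by gene identifier. The procedure was tested on simulated data. Promoter motifs were searched in RefSeq sequences; protein sequences were not used here.

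Members and lists were chosen with earlier results of these data known. Genes named are every member, the 3 of smallest p per chaperone list, family paralogues of the members and the genes of nearest profile (5 for Bag3, 1 for each other member); others, among them the cell type markers named, were chosen after their values were seen. With 2 arrays per group, the number of arrays limits the precision, and p-values measure the spread between these cultures. On deposited values that spread is the one typical of probe sets of like level, not each probe set's own. With quantile normalized and median-centred values it mixes both, with prior degrees of freedom of 7.97 and 9.61. The typical spread therefore has more weight there, too, than each probe set's own. Quantile normalization assumes equal overall distributions, which would hide a global change.

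Same-numbered arrays may share an embryo pool, which no label states. Their deviations from the group means correlated at -0.0443 over the tested probe sets (-0.118 as deposited), over 2 pairs, so the replicate number was not used as a block in the reported values.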

Additional observations from a re-analysis of the deposited data

How the results depend on the processing

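Of tested probe sets, 2734 were higher and 2802 lower after quantile normalization (49.4% of calls higher), against 1826 and 5568 with median-centred arrays (24.7%) and 8322 and 328 as deposited (96.2%). Members called lower numbered 1 after quantile normalization (Hspa1a) and 3 with median-centred arrays (Hspa1a and the brighter probe sets of Dnajb1 and Hsph1). The chaperone lists had 15 higher and 10 lower genes, against 6 and 35 with median-centred arrays and 42 and 0 as deposited, and medians of 0.02, -0.22 and 0.35 log2. As deposited, the sign turned for Dnajb1 (0.29 and 0.18 log2) and Hsph1 (0.28 and 0.15 log2), since the whole table shifted upward.

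With the replicate block, which shares only numbers, calls under all 3 scalings were 45 lower instead of 328 and members lower 0 instead of 1; Hspa1a was lost on deposited values alone. Without the intensity trend, 208 probe sets were lower under all 3 scalings, and 1639 were higher and 1617 lower after quantile normalization. The lists then had 2 higher genes under all 3 scalings, Flnc and Hspb3 but not Wipi1, and 4 higher and 1 lower after quantile normalization. With the dimmest 50% left out, Bag3 and Hspb1 were not tested and 1 member was called higher. Hspb1 was not called under all 3 scalings without the filter or without the trend.

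Leaving out 1 array gave 520 to 1254 higher and 76 to 152 lower probe sets under all 3 scalings (1579 and 328 with all arrays), and 629 to 1520 and 638 to 1110 after quantile normalization. It gave 1 to 2 members higher and 1 to 1 lower on either rule, 1 to 3 list genes higher and 0 to 0 lower under all 3 scalings, and 1 to 8 and 0 to 2 after quantile normalization. Bag3 and Hspa1a were called in every one of these 4 fits.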
